A study of Nothobranchius furzeri with 19 samples.

Results

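Genes whose sex difference turned round after hatching were examined in the turquoise killifish *Nothobranchius furzeri*, strain GRZ, an annual fish with XX females and XY males. The members were selected on the measured values themselves. With L = log2(CPM + 1), where CPM is a count scaled to its library's total, a gene entered when its mean over the 11 trunk libraries was at least 1 CPM, when no female library overlapped the male ones at hatching (0 days post hatching, dph) nor at 3 dph, and when the difference of mean L was at least 0.5 at both stages with opposite directions. This gave 81 of 26740 genes, of which 44 were female-higher at hatching but male-higher at 3 dph (here called early-female genes) and 37 were male-higher at hatching but female-higher at 3 dph (early-male genes). RNA had been sequenced from whole embryos at 10 days post fertilization (dpf; 3 female and 3 male libraries), from trunk parts at 0 dph (2 female and 3 male) and at 3 dph (3 female and 3 male), and from 1 ovary and 1 testis at 3 months of age. All were labelled only by stage, sex and tissue, with no treatment and no transgene in any group, and whether a library held 1 animal or several is not stated in the labels.

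A trunk of this age holds skin, muscle, gut, kidney and vessels beside a very small gonad, so its RNA mixes many cell types. In female teleosts the germ cells commonly multiply and enter meiosis earlier than in males, and the body as a whole shifts at hatching from yolk-fed embryonic growth to free feeding. Because the libraries are bulk samples, fewer cells of a type and less RNA per cell cannot be told apart.

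The members were few against the genes that were sex-different at either stage. By the same limits, 14.5% of the 18507 genes with a mean of at least 1 CPM were female-higher at 0 dph and 2.53% were male-higher, and 13.1% were female-higher at 3 dph and 2.91% male-higher. The reversing genes made up 0.238% (early-female) and 0.2% (early-male) of these genes, against 775 genes that were female-higher at both stages and 64 that were male-higher at both. These shares describe the selection and carry no test. The membership was sensitive to scaling and to single libraries. The median gene differed by 0.19 on the L scale between female and male libraries at 0 dph when scaled on totals, by -0.01 with median-of-ratios size factors and by 0.04 with TMM factors. Median-of-ratios scaling gave 28 early-female and 87 early-male genes, and kept 17 of the 44 and 25 of the 37. TMM gave 30 and 82 genes, and kept 24 and 33. For early-female genes the number that met the rule was 82 without female 0 dph replicate 1, 69 without female 0 dph replicate 2, 75 without female 3 dph replicate 1, 80 without female 3 dph replicate 2, 117 without male 3 dph replicate 1 and 75 without male 3 dph replicate 3. For early-male genes it was 171 without female 0 dph replicate 1, 12 without female 0 dph replicate 2 and 107 without male 0 dph replicate 1. Of the 44 early-female genes 9 were members whichever trunk library was left out, and of the 37 early-male genes 6 were.

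**Figure D1:**
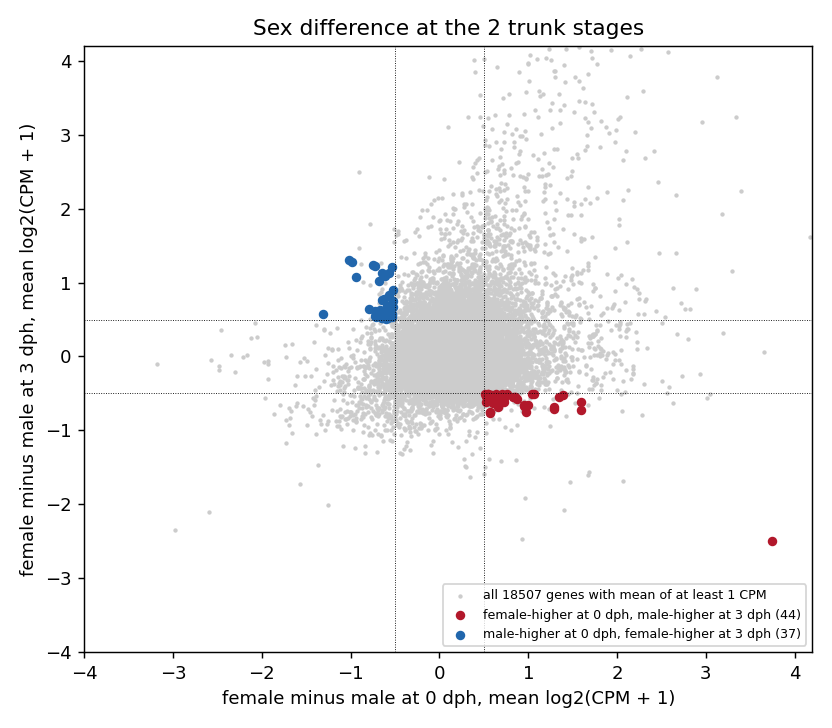
Female minus male difference of mean log2(CPM + 1) at 0 dph (x axis) and at 3 dph (y axis), one point per gene, with the 44 early-female genes in red, the 37 early-male genes in blue, the other genes of the 18507 in grey and dotted lines at the limit of 0.5. The axes end near 4 and leave out 144 genes; the members sit in the 2 corners the rule defines, mostly close to the limit, with 1 early-female gene far from the rest at 3.74 and -2.50.

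Libraries held 15563687 to 19943569 counts at 10 dpf, 17324478 to 20218857 at 0 dph and 25600939 to 31493908 at 3 dph, and 25875516 counts in the ovary against 11717979 in the testis. Of the embryo libraries, male 10 dpf replicate 1 stood apart: its rank correlation across genes with the mean 0 dph trunk was 0.731, against 0.622 to 0.650 in the other 5, and its summed level of 13 epidermis genes was 5192 CPM, against 734 to 1534 CPM. In the trunk at 0 dph, the same epidermis list summed to 9702 and 10007 CPM in females, against 1984, 5989 and 8059 CPM in males, and the 9 erythrocyte genes to 320 and 1847 CPM in females, against 166 to 247 CPM in males. A list of 38 cell-cycle, meiosis and germ-cell genes did not reverse: it summed to 672 and 687 CPM in females and 302 to 340 CPM in males at 0 dph, and to 1043 to 1183 CPM in females and 697 to 875 CPM in males at 3 dph. Marker lists were matched by gene symbol. Of the 5 members with a symbol 0 belonged to any of the 11 lists examined, and the other 76 could not be looked up in them.

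For the early-female genes, the mean over the trunk libraries had a median of 7.94 CPM, against 11.9 CPM over all 18507 genes, neither corrected for gene length, and 14 of the 44 were under 5 CPM, where few reads carry each value. The difference at 0 dph had a median of 0.71 on the L scale and ranged from 0.51 to 3.74, while that at 3 dph had a median of -0.56 and ranged from -2.50 to -0.50. In 37 of the 44 the difference at hatching was the larger. On library totals the median gene was itself female-higher by 0.19 at 0 dph, against -0.02 at 3 dph. This offset enlarges a female-higher difference at hatching, and the count was not repeated under another scaling. Just inside the limit stood Nfu_g_1_005471 and Nfu_g_1_010384, with smaller differences of 0.505 and 0.506, and just outside it Nfu_g_1_015838 and Nfu_g_1_009573 with 0.495 each. Without the minimum difference, 451 genes would have shown this order of libraries.

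Gene symbols of zebrafish orthologs, as the study pairs them with its gene identifiers, could be matched for 2671 of the 26740 identifiers and for 5 of the 81 members. Only a part of the study's table was used, so a gene with no symbol here may carry one in the full table. Gene families looked up by symbol are incomplete for the same reason. Of the early-female genes, 2 carried such a symbol. The first, *wnt7aa* (Nfu_g_1_001489), encodes a secreted ligand of the Wnt family, whose members bind Frizzled receptors and pattern many embryonic tissues. At 10 dpf it measured 8.26, 6.89 and 5.35 CPM in females, against 6.87, 8.003 and 5.01 CPM in males. At hatching it had 2.23 and 1.68 CPM in females, against 0.769, 0.635 and 0.487 CPM in males. At 3 dph it had 1.32, 1.37 and 0.738 CPM in females, against 1.58, 2.60 and 2.23 CPM in males. The embryos of both sexes thus overlapped at the highest level of the series, male trunks stood at their lowest at hatching, and female trunks did not share that low point. The counts behind the hatching values were small, at 39 and 34 reads in females and 15, 11 and 9 in males, and the ovary held 6 counts and the testis 0, which allows up to 0.256 CPM.

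The receptor-like *crfb16* (Nfu_g_1_012922), a member of the class II cytokine receptor family of fish, was lower still. It had 0.667, 0.748 and 0.640 CPM in female embryos, against 2.76, 1.05 and 5.204 CPM in male embryos. Trunks at 0 dph held 1.77 and 1.34 CPM in females, against 0.718, 0.750 and 0.378 CPM in males. Trunks at 3 dph held 0.731, 0.893 and 0.905 CPM in females, against 1.99, 1.46 and 1.60 CPM in males. It was therefore male-higher without overlap at 10 dpf and at 3 dph, with the opposite order at hatching between them. The embryo difference was -2.30 ± 0.67 (log2 fold change, female over male, ± SE) and its DESeq2 adjusted p was 0.144, so it did not pass the 0.05 threshold. All 17 embryo and trunk libraries rested on 81 counts or fewer for this gene.

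Of the 3 Wnt ligands with a symbol and enough counts, looked up after the members were known, only *wnt7aa* reversed. *wnt5a* was female-higher at 0 dph (12.7 and 7.91 CPM in females, against 4.36, 7.33 and 4.11 CPM in males) and its female libraries again lay above the male ones at 3 dph (8.39, 8.69 and 6.57 CPM in females, against 6.35, 6.06 and 5.43 CPM in males), while *wnt4b* overlapped at both stages. Of 3 Frizzled receptors, *fzd4* averaged 55.2 CPM in females and 35.8 CPM in males at 0 dph, where the libraries overlapped, and 60.8 CPM in females and 77.7 CPM in males at 3 dph, where all males lay above all females by less than the limit (-0.35 on the L scale). *fzd2* was female-higher at 0 dph and overlapped at 3 dph, and *fzd9b* overlapped at both.

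**Figure D2:**
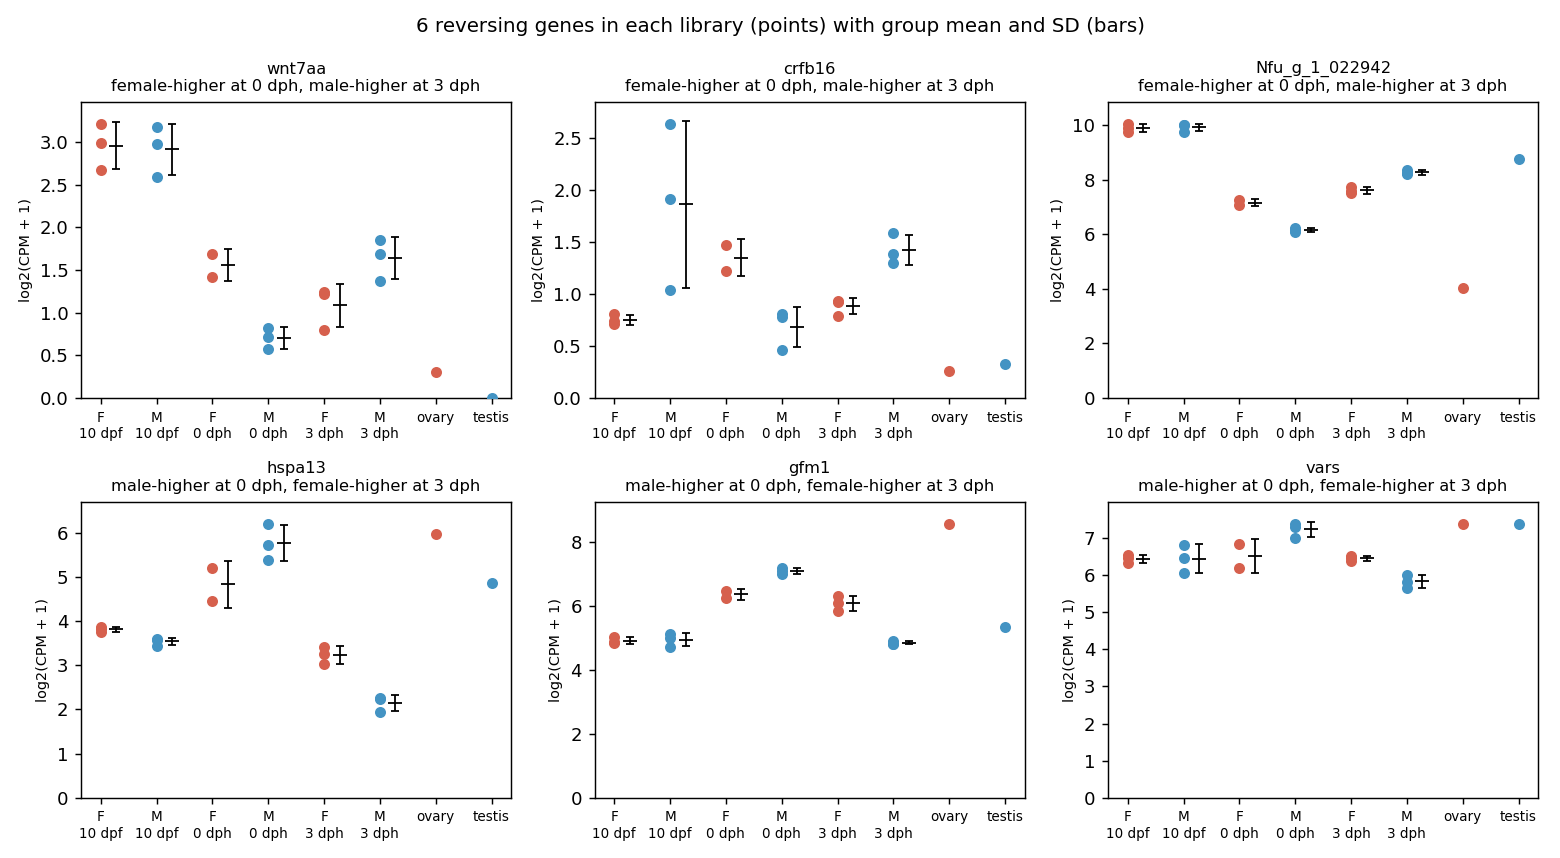
log2(CPM + 1) of 6 members in every library, grouped on the x axis by stage and sex, with female libraries and the ovary in red and male libraries and the testis in blue; black marks are group means with SD. In the top row (*wnt7aa*, *crfb16*, Nfu_g_1_022942) the female points are above the male points at 0 dph and below them at 3 dph, and in the bottom row (*hspa13*, *gfm1*, *vars*) the order is the other way round.

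Members with no symbol matched here made up the rest, and those with the largest smaller difference are described by identifier only. Nfu_g_1_022942 was highest in embryos, where the sexes overlapped, with 935, 1055 and 867 CPM in females and 860.1, 1021 and 1016 CPM in males. At 0 dph it measured 150.2 and 133 CPM in females, against 74.6, 67.1 and 70.3 CPM in males. At 3 dph it measured 213, 182 and 189 CPM in females, against 328, 291 and 302 CPM in males. The replicate spread was small against the mean in every group (SD of 3.75 to 18.96 CPM in the trunk groups, and of 95.2 CPM in female and 91.5 CPM in male embryos). The ovary held 15.5 CPM, against 426 CPM in the testis.

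In Nfu_g_1_008278 the change between the stages was far larger than the sex difference. It had 4.40 and 5.98 CPM in females and 2.72, 3.23 and 2.60 CPM in males at 0 dph, and 60.6, 69.4 and 52.8 CPM in females and 90.3, 88.4 and 104 CPM in males at 3 dph. The male trunks thus began lower and ended higher. Its fold change over stages was the largest positive one among the members, at 4.52 ± 0.14 (log2, 3 dph over 0 dph, ± SE; DESeq2 adjusted p = 4.18e-220).

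The gene with the largest differences, Nfu_g_1_010843, was also the most erratic within groups. At 0 dph it had 118 and 132 CPM in females, against 9.79, 0 and 76.4 CPM in males, where the count of 0 allows up to 0.173 CPM. At 3 dph it had 50.6, 0.172 and 50.3 CPM in females, against 80.3, 96.1 and 69.7 CPM in males. A near-absent library occurred in each sex, and DESeq2 gave no p for this gene over stages. Nfu_g_1_014479 likewise leaned on 1 library, with 12.2 and 45.7 CPM in females at 0 dph, against 8.46, 9.24 and 9.73 CPM in males.

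Of the other early-female genes among the 10 with the largest smaller difference, Nfu_g_1_021566, Nfu_g_1_007159, Nfu_g_1_013319, Nfu_g_1_013348, Nfu_g_1_009500 and Nfu_g_1_024913 differed between the sexes by 0.66 to 1.59 on the L scale at 0 dph and by -0.75 to -0.66 at 3 dph. In Nfu_g_1_013319, for example, hatchling trunks held 76.2 and 56.5 CPM in females, against 15.9, 28.7 and 38.9 CPM in males, and larval trunks 33.8, 35.5 and 31.6 CPM in females, against 61.0, 52.8 and 53.1 CPM in males.

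The trunk mean of the early-male genes had a median of 40.0 CPM, against 11.9 CPM over all genes and again with no length correction, and 31 of the 37 were above 10 CPM. The difference had a median of -0.61 at 0 dph (range -1.32 to -0.52) and of 0.66 at 3 dph (range 0.51 to 1.31), and it was the larger at 0 dph in 14 of the 37. The female-higher offset of the median gene at 0 dph reduces an early-male difference there. This count too was made on library totals only. Inside the limit the nearest were Nfu_g_1_011238 and Nfu_g_1_016368 (0.508 and 0.516), and outside it Nfu_g_1_005900 and Nfu_g_1_018176 (0.497 and 0.498). The same order of libraries without a minimum difference was met by 185 genes.

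Among them, 3 carried a symbol. *hspa13* (Nfu_g_1_000146) encodes a member of the HSP70 chaperone family that is associated with the endoplasmic reticulum. Embryos held 12.5, 13.5 and 13.1 CPM in females, against 9.88, 10.96 and 11.1 CPM in males. Hatchling trunks held 36.0 and 20.9 CPM in females, against 40.8, 73.0 and 51.6 CPM in males. Larval trunks held 9.65, 8.55 and 7.11 CPM in females, against 3.74, 3.81 and 2.85 CPM in males. Levels were thus lower at 3 dph in both sexes, and more so in males. The change over stages was -2.82 ± 0.20 (log2, DESeq2 adjusted p = 3.55e-44), and the gonads had 61.8 CPM in the ovary, against 27.9 CPM in the testis. The only other HSP70 gene with a symbol, *hspa8l*, was female-higher at 3 dph (18.6, 17.3 and 20.2 CPM in females, against 10.6, 12.1 and 12.3 CPM in males) and overlapped at 0 dph.

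*gfm1* (Nfu_g_1_000730), the mitochondrial elongation factor G that moves the ribosome along the messenger RNA inside mitochondria, averaged 81.3 ± 9.30 CPM in females (SD, n = 2) and 135 ± 8.22 CPM in males (SD, n = 3) at 0 dph. At 3 dph it averaged 67.1 ± 10.97 CPM in females and 27.8 ± 1.03 CPM in males (SD, n = 3 each). Embryos did not separate, at 28.1, 27.3 and 31.6 CPM in females and 25.2, 30.9 and 33.4 CPM in males. The change over stages was -1.21 ± 0.13 (log2, DESeq2 adjusted p = 5.4e-19), and its ovary level of 380 CPM stood far above the 39.3 CPM of the testis. Both *hspa13* and *gfm1* stayed members under each scaling and without any single trunk library. The other 3 members with a symbol also stayed under each scaling, but *wnt7aa* no longer met the rule without female 3 dph replicate 3 or male 3 dph replicate 2, *crfb16* without female or male 3 dph replicate 1, and *vars* without female 0 dph replicate 2. None of the 7 mitochondrial ribosomal protein genes with a symbol and a mean of at least 1 CPM met the limits at either stage. In 4 of them (*mrpl44*, *MRPL55*, *MRPL51* and *mrpl17*) all female libraries lay above all male ones at 3 dph, by 0.14 to 0.46 on the L scale, an order found in 24.4% of all genes.

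*vars* (Nfu_g_1_001315) encodes valyl-tRNA synthetase, which charges tRNA with valine. It had 113 and 71.8 CPM in females at 0 dph, against 128, 158 and 167 CPM in males, and 82.7, 90.8 and 86.8 CPM in females at 3 dph, against 55.7, 63.4 and 49.8 CPM in males. Its female level hardly differed between the stages (86.8 CPM at 3 dph, against 92.6 CPM at 0 dph), while the male level was 56.3 CPM at 3 dph, against 151 CPM at 0 dph. The ovary and the testis were alike, at 165 and 164 CPM. Of the other 4 aminoacyl-tRNA synthetase genes with a symbol, looked up after *vars* was known to be a member, *sars* was male-higher at 0 dph (118 and 82.2 CPM in females, against 124, 181 and 160.3 CPM in males). At 3 dph its libraries were in the opposite order, at 95.2, 94.8 and 99.3 CPM in females, against 87.1, 89.4 and 71.3 CPM in males, with a difference of 0.23 that is below the limit. *qars* was male-higher at 0 dph by less than the limit (-0.43) and overlapped at 3 dph, and *tars* and *NARS2* overlapped at 0 dph and lay higher in all female libraries at 3 dph, by 0.13 and 0.31.

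The early-male gene with the largest smaller difference was Nfu_g_1_021007. It had 36.0 and 23.3 CPM in females at 0 dph, against 46.8, 63.8 and 71.1 CPM in males, and 32.4, 29.7 and 30.6 CPM in females at 3 dph, against 11.2, 13.7 and 10.9 CPM in males. The female mean was 29.7 CPM at 0 dph and 30.9 CPM at 3 dph, though the 2 female hatchling libraries lay apart. Whole female embryos held 21.9 to 29.7 CPM. The male mean was 60.6 CPM at 0 dph and 11.9 CPM at 3 dph. Nfu_g_1_005178 had the same form, with 80.4 and 64.8 CPM in females at 0 dph, against 87.6, 134 and 155 CPM in males, and 62.6 to 63.7 CPM in females at 3 dph, against 23.7, 28.7 and 25.9 CPM in males. The other early-male genes among the first 10, Nfu_g_1_023039, Nfu_g_1_023523, Nfu_g_1_009904, Nfu_g_1_016409, Nfu_g_1_006910 and Nfu_g_1_013396, differed by -0.99 to -0.64 at 0 dph and by 0.64 to 1.28 at 3 dph. Outside them, Nfu_g_1_008772 was singled out after its values were seen, as the early-male gene that differed most at hatching (193 and 224 CPM in females, against 469, 507 and 586 CPM in males). At 3 dph it held 35.2, 36.2 and 35.8 CPM in females, against 33.6, 18.3 and 21.5 CPM in males, and in embryos of both sexes it lay between 3.64 and 4.69 CPM.

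Certain libraries moved with these genes. Female 0 dph replicate 1 was the higher of its pair in 34 of the 37 early-male genes, against 60.7% of all genes, and male 0 dph replicate 1, the library with the low epidermis sum, was the lowest male in 27 of 37, against 40.1%. In the early-female genes the corresponding counts were 21 and 17 of 44. The 31 cartilage and connective tissue genes followed the early-female order as a sum only, at 1172 and 1231 CPM in females and 762 to 929 CPM in males at 0 dph, and 1324 to 1540 CPM in females and 1592 to 1634 CPM in males at 3 dph. Of the 30 with a mean of at least 1 CPM, 9 were female-higher and 1 male-higher at 0 dph by the limits. At 3 dph 0 were female-higher and 1 male-higher. The epidermis and erythrocyte sums, given above, and that of 30 muscle genes also lay higher in all females at 0 dph. For muscle these were 1243 and 1569 CPM in females, against 894 to 1206 CPM in males. At 3 dph the sexes overlapped in each, at 1150 to 1467 CPM in females and 1433 to 1513 CPM in males (muscle). The epidermis sums were 18059.8 to 20738.5 and 18693.9 to 23200.2 CPM, and the erythrocyte sums 2021 to 3413 and 2742 to 6742 CPM. The 22 gut genes summed to 602 and 728 CPM in females and 709 to 1415 CPM in males at 0 dph, where the sexes overlapped. At 3 dph they summed to 621 to 744 CPM in females and 373 to 580 CPM in males. Of the 19 with a mean of at least 1 CPM, 3 were female-higher and 4 male-higher at 0 dph, and 2 and 6 at 3 dph. The part of these tissue amounts in the reversal was not tested.

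**Figure D3:**
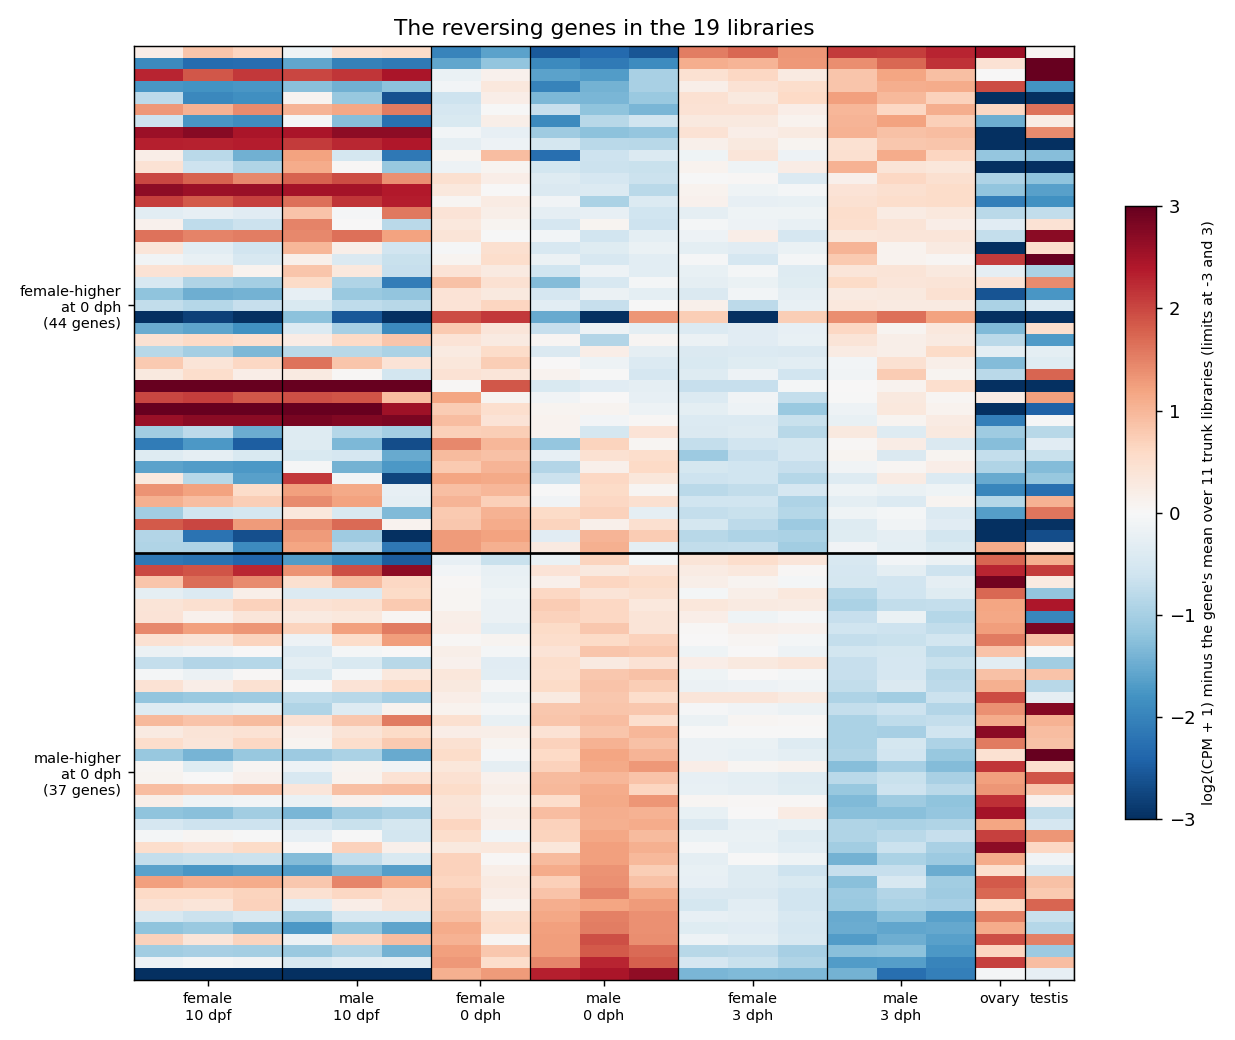
log2(CPM + 1) of each member (rows) in each of the 19 libraries (columns), minus the gene's mean over the 11 trunk libraries, with red above and blue below it and the colour ending at -3 and 3. Rows above the black line are the 44 early-female genes and rows below it the 37 early-male genes, each ordered by the fold change over stages. Male trunks at 3 dph are blue in the early-male block, while the early-female block runs through rows that were higher at 3 dph, level, and lower.

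The change from 0 to 3 dph was tested over both sexes in the same 11 trunk libraries that the rule used. Its groups were weighted by their number of libraries. This leaves the noise of the contrast uncorrelated with that of the sex differences only where libraries vary alike in all groups, which was not tested. A real difference at 0 dph also enters it with a weight of 0.1. DESeq2 called 15 of the 43 early-female genes with an adjusted p higher at 3 dph and 11 lower, against 31.2% and 30.1% of all genes tested. Of the 37 early-male genes it called 0 higher and 35 lower, with 1 higher at an unadjusted p under 0.05. edgeR also called 0 higher and 35 lower. With the sexes weighted equally the calls were 13 higher and 13 lower among the early-female genes, and 1 higher and 33 lower among the early-male genes, against 30.3% and 29.3% of all genes. The median log2 fold change (3 dph over 0 dph) was 0.22 over the early-female genes, -1.10 over the early-male genes and near 0 over all genes (-0.0042). Early-female genes were thus called both ways over this interval at about the background rate, whereas early-male genes were nearly all called lower at 3 dph. The same libraries chose the members, so these calls describe them and are no independent check of either direction. At the ends of the range were Nfu_g_1_008278 among the early-female genes, described with its values, and Nfu_g_1_008772 among the early-male genes (-3.46 ± 0.20, log2, DESeq2 adjusted p = 1.11e-65). The 2 early-male genes not called were Nfu_g_1_008868 (-0.18 ± 0.10, DESeq2 adjusted p = 0.142) and Nfu_g_1_020528 (0.31 ± 0.16, DESeq2 adjusted p = 0.085).

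Within each sex, the early-female genes had a median change of -0.69 in females and of 0.67 in males (3 dph minus 0 dph, L scale), against -0.18 and -0.07 over all genes. In 26 of the 44 the mean was lower in females and higher in males at 3 dph, against 14.6% of all genes. In 10 it was higher in both and in 8 lower in both, against 31.3% and 46.5% of all genes. Males changed more in 23 of the 44, against 52.4% of all genes. The early-male genes had a median change of -0.28 in females and -1.75 in males. In 27 of the 37 both sexes were lower at 3 dph and in 10 only the male mean was, against 46.5% and 7.70% of all genes. Males changed more in 36 of the 37, and all 3 male libraries at 3 dph lay below all 3 at 0 dph in 36 of the 37, against 29.1% of all genes. The gap between the changes of the sexes is set by the rule, and these counts are given as a description.

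**Figure D4:**
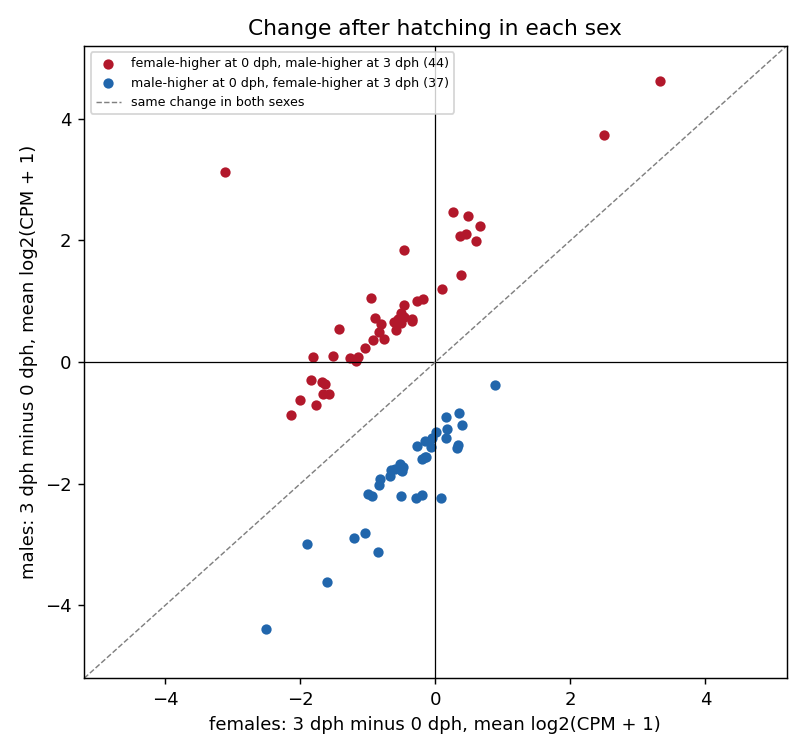
Change of mean log2(CPM + 1) in females (x axis) and in males (y axis), 3 dph minus 0 dph, one point per member, with the dashed line marking equal change. The early-female genes (red) lie above the line around a median of -0.69 in females and 0.67 in males, and the early-male genes (blue) below it around -0.28 and -1.75.

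At 10 dpf, in libraries that the rule did not use, no member was called sex-different. DESeq2 called 0 of the 42 early-female genes and 0 of the 36 early-male genes that had an adjusted p, against 0.125% (female-higher) and 0.0456% (male-higher) of all genes. At an unadjusted p under 0.05 there were 4 early-female genes, all male-higher, and 1 early-male gene, female-higher. edgeR called 0 of all genes, so it could not have called a member. With so few calls over all genes, these counts of 0 say little about the members. At an unadjusted p under 0.05 edgeR gave 2 early-female genes and 1 early-male gene. The share of all genes under that unadjusted limit was not counted, so neither the unadjusted counts nor their directions are read as a result. The smallest adjusted p among the members was that of *crfb16*, given above. Leaving out male 10 dpf replicate 2 brought the DESeq2 adjusted p of *crfb16* to 0.00145, and leaving out male 10 dpf replicate 3 called Nfu_g_1_002389, another early-female gene, male-higher (-1.71 ± 0.52 on the log2 scale, DESeq2 adjusted p = 0.0492). Over all genes these fits called 236 and 429, against 46 with all 6 libraries. The calls of these members are therefore not read as a result. No member was called without male 10 dpf replicate 1.

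The embryo libraries did not overlap in few members. Females were all above males in 1 early-female gene (Nfu_g_1_020983) and in 1 early-male gene (*hspa13*), against 9.95% of all genes. Males were all above females in 4 early-female genes (*crfb16*, Nfu_g_1_005947, Nfu_g_1_014212 and Nfu_g_1_020205) and in 2 early-male genes (Nfu_g_1_008772 and Nfu_g_1_009393), against 4.25%. The female-above shares (2.27% of the early-female and 2.70% of the early-male genes) were thus below that of all genes. The male-above shares (9.09% and 5.41%) were above it. Each rests on 1 to 4 genes, and the departure from the share of all genes was not tested. The median difference at 10 dpf was -0.14 over the early-female genes, 0.04 over the early-male genes and 0.03 over all genes (female minus male, L scale). Male 10 dpf replicate 1, the library that stood apart, was the highest of the 6 in 26 of the 44 early-female genes, against 29.7% of all genes, and the lowest in 25 of the 37 early-male genes, against 32.7%. Male 10 dpf replicate 3 was the lowest in 26 of the 44, against 40.2%. The embryo values of the early-female genes thus spread widely among the male libraries, and the part of library composition in this was not tested.

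In the adult gonads the early-male genes mostly stood higher in the ovary. The share of early-female genes at least 2-fold higher in the testis was near that of all genes (29.5% against 28.3%). Their share at least 2-fold higher in the ovary was below it (4.5% against 18.9%). Both shares depend on the added 1 CPM, which shrinks ratios more at low levels. The early-female genes had median levels of 2.05 CPM in the ovary and 4.14 CPM in the testis. Over all genes the medians were 14.5 and 15.2 CPM. The early-female counts rose with a pseudocount of 0.25 CPM, as given in the closing section. With 1 ovary and 1 testis there is no replicate check, and the values compare these libraries only. Of the early-female genes 2 were at least 2-fold higher in the ovary and 13 at least 2-fold higher in the testis, and of the early-male genes 16 and 5, against 18.9% and 28.3% of all genes, on the L scale. The median of ovary minus testis was -0.43 over the early-female genes, 0.94 over the early-male genes and -0.22 over all genes. Ovary stood above testis in 13 of the 44 early-female genes and in 31 of the 37 early-male genes, against 7700 of all 18507 genes. Testis stood above ovary in 31 of the 44 and in 6 of the 37, against 10700 of all genes. The early-male genes at the ovary end, beside *gfm1*, included Nfu_g_1_006910 (402 CPM in the ovary, against 88.7 CPM in the testis) and Nfu_g_1_005178 (283 CPM, against 67.1 CPM). The testis end of that group was Nfu_g_1_013396, at 90.9 CPM in the ovary, against 975 CPM in the testis. Among the early-female genes, Nfu_g_1_022942 had the lowest ovary minus testis difference on the L scale and Nfu_g_1_005947 the highest (22.6 CPM in the ovary, against 0.768 CPM in the testis, from 584 and 9 counts). When the gonads were scaled by median-of-ratios size factors, the counts were 5 and 11 for the early-female genes and 25 and 2 for the early-male genes, against 27.5% and 19.4% of all genes under that scaling, and the medians were -0.22, 1.47 and 0.11 (early-female, early-male and all genes).

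The place of the highest mean in the series was counted for each group. The highest mean of an early-male gene lay in the gonad in 27 of the 37 and at 0 dph in the other 10, and none peaked in embryos or at 3 dph. Of the early-female genes 18 peaked at 10 dpf, 11 at 0 dph, 7 at 3 dph and 8 in the gonad. The place of the peak was not counted over all genes, so these counts describe the members only. They also set whole embryos, trunk parts and gonads side by side on library totals. The 10 largest genes of a library held 20.4% to 29.5% of its counts at 3 dph, against 3.42% to 13.1% elsewhere. This lowers the CPM of the other genes at 3 dph. Over the early-male genes the median of the group means was 34.7 CPM in females and 30.3 CPM in males at 10 dpf, 46.8 and 76.1 CPM at 0 dph, 35.1 and 20.01 CPM at 3 dph, and 96.9 CPM in the ovary against 65.8 CPM in the testis. Over the early-female genes it was 9.31 CPM in females and 10.2 CPM in males at 10 dpf, 9.63 and 5.55 CPM at 0 dph, 6.73 and 10.8 CPM at 3 dph, and 2.05 CPM in the ovary against 4.14 CPM in the testis. Among the trunk groups, males held the most extreme medians, with males lowest at hatching in the early-female genes and lowest at 3 dph in the early-male genes. Gene by gene, males changed more than females in 23 of the 44 early-female genes, against 52.4% of all genes.

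**Figure D5:**
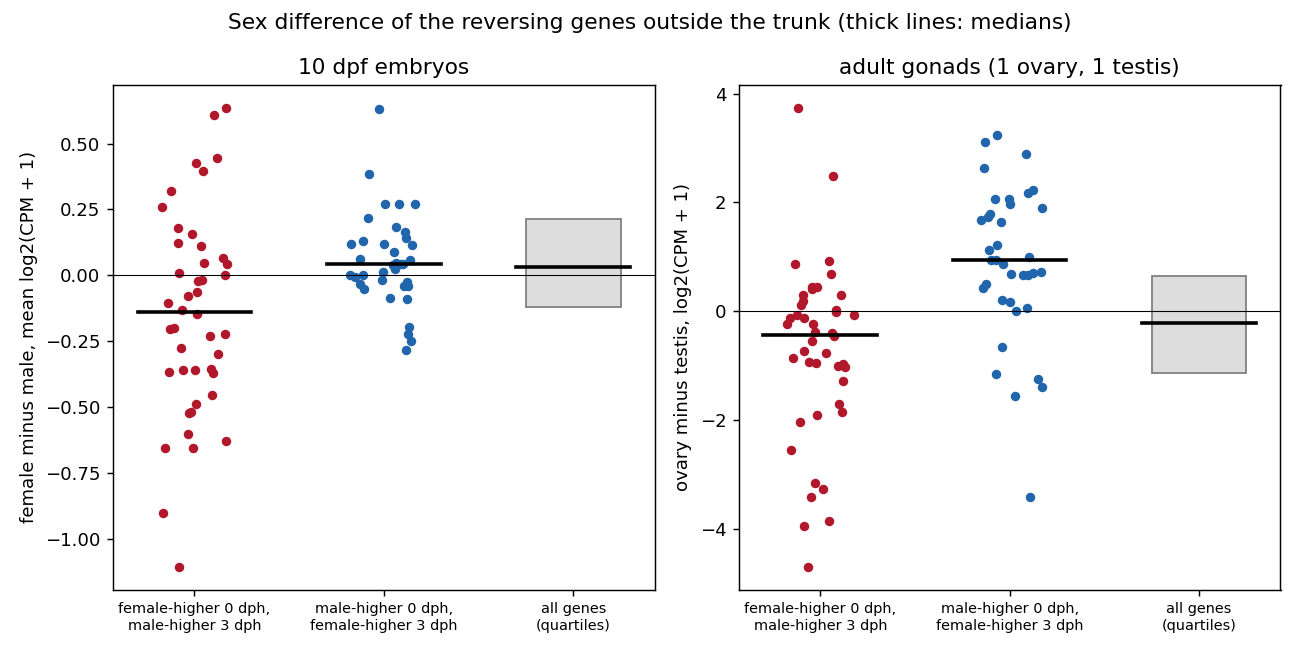
Difference of log2(CPM + 1) between females and males at 10 dpf (left) and between ovary and testis (right), one point per member, with thick lines at the medians and a grey box for the quartiles of all 18507 genes. The embryo medians lie at -0.14 and 0.04 beside 0.03 for all genes, and the gonad medians at -0.43 (early-female) and 0.94 (early-male) beside -0.22.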

How the data were processed

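QIAzol was used to extract RNA, and TruSeq v2 libraries were sequenced on an Illumina HiSeq, per the labels. The authors filtered reads with sga, aligned them with STAR to a published *N. furzeri* reference genome and counted them per gene with summarizeOverlaps. The deposited values are raw counts for 26740 genes in 19 libraries, all mapped to a group. The gene identifiers belong to the study's *N. furzeri* gene annotation. Counting mode and strand setting are not given in the sources used here.

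CPM was taken on library totals and L = log2(CPM + 1). Members and lists were chosen with earlier results of these data known. The sex differences at 0 and 3 dph chose the members and were not tested. DESeq2 1.42.0 (Wald test, Benjamini-Hochberg adjustment over all genes, 0.05) compared females with males at 10 dpf and, over the 11 trunk libraries, 3 dph with 0 dph. The stage contrast weighted the groups 0.5 and 0.5 at 3 dph and 0.4 (female) and 0.6 (male) at 0 dph. Where libraries vary alike in all groups, this leaves its noise uncorrelated with that of the sex difference of each stage. edgeR 4.0.16 and the other settings in the closing section were alternatives. Named genes were, per direction, the 10 with the largest smaller-of-both-stages difference, all with a symbol, any called at 10 dpf, and those nearest the limit. The other genes named were chosen after their values were seen. Symbols came from the study's table of identifiers, of which a part was used here, and no identifier matched the RefSeq table. The rule and the tests were run on simulated data with planted differences larger than those of most members. Those runs do not show how well differences near the limit are found. Nothing in the labels says that libraries came from separate animals, so p-values measure the spread between these samples, which may be technical, and limits from a count of 0 (3 counts) cover counting error only.

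Libraries of a group differed beyond sampling noise. At 10 dpf, female and male libraries with the same replicate number deviated together (correlations 0.511, 0.193 and 0.629 across genes), a pairing taken from the data, since the meaning of the number is not given in the labels. At 0 and 3 dph they did not (-0.130, -0.238, -0.207, 0.166 and 0.0241).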

Additional observations from a re-analysis of the deposited data

Results flagged for a closer look

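The sex difference had opposite directions at 0 and 3 dph, with every library on its own side, in 44 genes (female-higher at 0 dph, male-higher at 3 dph) and in 37 genes (male-higher at 0 dph, female-higher at 3 dph). The genes were chosen for this, so the difference between the stages was not tested. Groups held 2 or 3 libraries, too few to look for single outlying values.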

How the results depend on the processing

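The number of genes that met the rule was 28 (early-female) and 87 (early-male) with median-of-ratios size factors, and 82 early-male genes with TMM. With a pseudocount of 0.25 CPM 71 early-female genes met it, with 5 CPM 9 and 20 did, and with a difference of at least 1 only 1 and 1. Leaving out single trunk libraries gave 36 to 117 early-female and 12 to 171 early-male genes. At 10 dpf, leaving out single libraries gave 0 to 1 early-female genes called male-higher and the replicate block gave 0 members in either direction. Over all genes, 46 were called at 10 dpf by DESeq2, 133 with the block, 0 by edgeR, 27 without independent filtering and 4 to 429 without single libraries. The stage counts of the members stayed within 1.5 times under the alternatives run, except that 1 early-male gene was called higher at 3 dph with the sexes weighted equally and 0 to 1 without single libraries; with the block they were 14 and 11 (early-female) and 0 and 33 (early-male). In the gonads, a pseudocount of 0.25 CPM gave 4 (ovary) and 20 (testis) early-female genes. The share of all genes at that pseudocount was not counted, so these counts are not read as a result. Median-of-ratios scaling of the gonads gave 5 early-female genes for the ovary and 25 and 2 early-male genes. Of the named genes, the fold change over stages turned sign for Nfu_g_1_010843 (-0.32 to 1.29 without single libraries), Nfu_g_1_014479 (-0.46 to 0.28) and Nfu_g_1_013348 (-0.038 to 0.35), none of them called. The cause of these shifts was not tested. The call over stages was lost for *wnt7aa* without any of 4 male libraries (DESeq2 adjusted p = 0.0502 to 0.0787), for Nfu_g_1_024913 without any of 6 libraries (0.0517 to 0.107) and for Nfu_g_1_007159 with the sexes weighted equally (0.0616) or without male replicate 2 of either stage (0.0550 and 0.0759). Depth limits *wnt7aa* and *crfb16*, each at under 100 counts in every trunk library.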
